A study of Mus musculus with 6 samples.

Results

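Core and linker histone genes were examined in mouse blastocysts that were cultured in vitro or developed in vivo. Genes were taken by a fixed list of symbol prefixes for the H1, H2A, H2B, H3 and H4 families, apart from H2ax and symbols ending in a pseudogene tag. Histone genes with other symbols, such as H2aj, are outside that list. The rule gave 76 of the 49993 genes in the count table. Of these, 62 are replication-dependent genes of the histone clusters, with 5 for H1, 17 for H2A, 16 for H2B, 12 for H3 and 12 for H4. A further 9 are variants that lie outside the clusters (H1f0, H1f7, H1f8, H1f10, H2az1, H2az2, H3f3a, H3f3b and H3f3c). The remaining 5 are the germline-restricted genes H1f6, H2ac1, H2bc1 and H3f4 and the pseudogene H2ac14, which stand inside the clusters and were kept apart. On GRCm38 coordinates 54 of the 76 genes lie in the large cluster on chromosome 13, 10 in the cluster on chromosome 3 and 3 in the cluster on chromosome 11.

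The in vitro group holds 3 libraries and the in vivo group 3. All females received 10 IU of PMSG and, 48 h later, 10 IU of hCG, hormones that make many oocytes ripen and ovulate, and then mated naturally. In vitro embryos were taken from the oviduct as zygotes at 19 to 21 h after hCG, then cultured in KSOM medium at 37 °C and 5% CO2 to blastocysts, whose age at freezing the sources used here do not give. Blastocysts of the in vivo group came from uterine flushes on day 3.5. The sample descriptions name a single inner cell mass for each library, while the design text speaks of blastocysts. RNA of 6 trophectoderm marker genes summed to 883 to 1535 CPM (counts scaled to the adjusted library total) in vitro and 555 to 1177 CPM in vivo, so outer cells were represented in every library, beside 5 epiblast markers at 232 to 377 CPM in vitro and 287 to 357 CPM in vivo. The 5 primitive endoderm markers summed to 290 to 448 CPM in vitro and 168 to 297 CPM in vivo, and one of them, Sox7, stood at 19.6, 31.1 and 4.17 CPM in vitro, against 0, 0 and 0.0716 CPM in vivo. The part of these lineage markers in the results on histones was not tested. Whether different mothers gave the libraries of a group is not stated, and p-values therefore reflect a spread between samples that may be technical. In such bulk samples fewer cells of a type and less RNA per cell cannot be told apart.

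Total counts were 6918288 to 12735551 in vitro and 9174789 to 17643429 in vivo, so that 3 counts equal 0.236 to 0.434 CPM in vitro and 0.170 to 0.327 CPM in vivo. Ribosomal RNA genes took 35.8% to 40.4% of the counts in vitro and 16.7% to 41.7% in vivo. In vivo replicate 3 stood apart from its group, with a Spearman correlation across genes of 0.786 and 0.793 with in vivo replicates 1 and 2, which reached 0.942 with each other. Genes are not independent replicates in such correlations. The in vitro libraries correlated at 0.789 to 0.848 with each other, and in vitro replicate 2 reached 0.873 and 0.857 with in vivo replicates 1 and 2.

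A nucleosome wraps DNA around an octamer of H2A, H2B, H3 and H4, and linker histone H1 binds where the DNA enters and leaves it. Replication-dependent genes supply these proteins during S phase. Their transcripts carry no introns and normally end in a short stem-loop in place of a poly(A) tail, and the stem-loop binding protein, encoded by Slbp, directs their processing and use. Variant genes such as those of H2A.Z and H3.3 are expressed through the cell cycle and give ordinary polyadenylated transcripts. In early mouse embryos the oocyte's linker histone, encoded by H1f8, is replaced by other H1 proteins, and H3.3 takes part in remodelling parental chromatin. The sources used here do not say how cDNA was primed, and the degree to which transcripts without a poly(A) tail were captured was not tested.

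The stem-loops are shown because they separate the classes. Among GENCODE transcripts with at least 50 bases after the stop codon, a perfect stem of 6 base pairs, starting with GG and ending with CC, around a loop of 4 bases starting with TT was found within 120 bases of the stop in 41 of 47 cluster genes (87.2%), in 0 of 8 variants and in 8 of 20603 other protein-coding genes (0.0388%). A single transcript per gene was searched, the one with the most bases after its stop. The stem arms are in capitals, on the strand of the transcript. The first sequence was found in 25 members, among them the most abundant cluster genes of this embryo, and the third in 6 H4 genes. The cluster genes searched without a match were H2bc4, H2bc21, H2bc22, H2bc23, H3c8 and H4c1, and 15 had too short an annotated end to be searched.
H2ac23 (chr13:21810898-21810913), H2ac24 (chr13:21833029-21833044), H2ac11 (chr13:22042483-22042498) and H2bc11 (chr13:22043638-22043653): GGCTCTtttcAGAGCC
H2bc12 (chr13:22036300-22036315) and H3c3 (chr13:23745047-23745062): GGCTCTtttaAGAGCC
H4c17 (chr13:21812129-21812144) and H4c18 (chr13:21831798-21831813): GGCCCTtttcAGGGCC
H4c9 (chr13:22040966-22040981): GGCCCTttttAGGGCC

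Promoters of 4 genes that the results turn on follow, each a window of 300 bases that lies mostly upstream of a RefSeq start and ends 50 bases past it (GRCm38.p6). Capitals mark TATAAA (letters of the TATA box), CCAAT (the box bound by NF-Y) and ATTTGCA (the core of the octamer bound by POU factors). Both strands were searched, so that a capital run may also be the reverse complement of these letters. Position was not considered, so a TATAAA run need not be a TATA box, and that of H4c18 lies far upstream of its start.
H2ac24, minus strand, chr13:21833426-21833725: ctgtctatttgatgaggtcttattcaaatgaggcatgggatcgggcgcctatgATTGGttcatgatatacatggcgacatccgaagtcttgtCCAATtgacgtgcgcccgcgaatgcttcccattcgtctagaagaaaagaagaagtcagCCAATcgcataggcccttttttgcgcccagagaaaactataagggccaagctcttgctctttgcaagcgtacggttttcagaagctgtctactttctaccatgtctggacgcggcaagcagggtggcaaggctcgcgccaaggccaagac
H2ac11, minus strand, chr13:22042900-22043199: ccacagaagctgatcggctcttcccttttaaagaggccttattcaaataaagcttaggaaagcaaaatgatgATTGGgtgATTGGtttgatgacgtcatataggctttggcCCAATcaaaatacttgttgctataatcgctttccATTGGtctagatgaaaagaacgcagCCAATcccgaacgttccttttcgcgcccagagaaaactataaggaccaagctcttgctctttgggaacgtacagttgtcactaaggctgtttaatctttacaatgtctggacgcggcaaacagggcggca
H4c18, minus strand, chr13:21832148-21832447: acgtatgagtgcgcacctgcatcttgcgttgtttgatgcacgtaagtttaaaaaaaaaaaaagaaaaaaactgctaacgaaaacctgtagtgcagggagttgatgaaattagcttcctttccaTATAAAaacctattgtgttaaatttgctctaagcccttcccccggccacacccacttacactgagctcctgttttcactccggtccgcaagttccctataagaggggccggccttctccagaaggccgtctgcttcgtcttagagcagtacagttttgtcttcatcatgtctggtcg
H3f3b, minus strand, chr11:116024455-116024754: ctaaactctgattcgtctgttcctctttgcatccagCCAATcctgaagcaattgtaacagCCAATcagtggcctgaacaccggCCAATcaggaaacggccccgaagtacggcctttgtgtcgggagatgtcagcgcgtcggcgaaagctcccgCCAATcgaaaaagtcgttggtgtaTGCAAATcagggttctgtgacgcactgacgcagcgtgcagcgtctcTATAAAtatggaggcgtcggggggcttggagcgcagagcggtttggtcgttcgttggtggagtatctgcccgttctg
CCAAT stood in the windows of 49 of 57 cluster genes with a promoter in the table (86.0%), against 37.4% of all 32851 promoters. It was found in 17 of 17 H2A, 14 of 14 H2B, 10 of 10 H3 and 5 of 5 H1 windows, and in 3 of 11 H4 windows. TATAAA was found in 33 of the 57 (57.9%), against 13.6% of all promoters. The octamer core was found in 6 of 17 H2A windows, 5 of 14 H2B windows and 4.02% of all promoters. Windows of paired genes on opposite strands overlap in part, such as those of H2ac11 and H2bc11, so these counts are not independent. The letters describe the windows and do not show that a factor binds there.

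Variants gave most of the histone counts. They made up 67.7% to 84.3% of all member counts in vitro and 69.3% to 81.6% in vivo, and the 76 genes together took 0.108% to 0.202% of all counts in vitro and 0.180% to 0.299% in vivo. Per kilobase of gene length and averaged over the 6 libraries, H2az1 (H2A.Z) led at 500.3 CPM per kb, followed by the cluster gene H2ac24 at 256, the H3.3 gene H3f3b at 233, H2ac23 at 204 and the H3.3 gene H3f3a at 148. The next gene, H2ac11, stood at 73.3 CPM per kb. These values depend on annotated gene length, which was 452 bases for H2ac24, 552 for H2ac23 and 2942 for H3f3b. Before division by length, H2ac24 and H2ac23 had means of 116 and 113 CPM.

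The edgeR quasi-likelihood test with Benjamini-Hochberg adjustment called 0 of the 37 members that passed the filter on low counts, and 0 of all 14301 genes tested (0.0%) at an adjusted p under 0.05. At an unadjusted p below 0.05 it listed 1 member, H4c18, against 1458 genes (10.2%). DESeq2 called 1 member, also H4c18, against 473 of 15775 genes with an adjusted p (3.0%, and 1.35% for calls lower in vitro). Limma-voom with quality weights called 0 members against 102 genes (0.713%). Of the 37 tested members, 5 had in vitro values below every in vivo value (10.0% of all genes tested) and 1, H1f10, above every one (9.27% of all genes tested).

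Cluster genes leaned toward lower values in vitro in H2A, H2B and H4 and not in H3. Of the 29 tested cluster genes, 24 had a negative log2 fold change of in vitro over in vivo, against 50.2% of all genes tested, and their median was -0.54, against -0.01 for all genes tested. Leaving out in vivo replicate 3 brought the median to -0.15, and leaving out in vitro replicate 2 to -1.38. Limma-voom gave a cluster median of -0.13. By family the medians were -0.47 for 14 H2A genes, -1.75 for 5 H2B genes, 0.14 for 6 H3 genes and -1.68 for 3 H4 genes. Under limma-voom the H2A median was -0.10, with 4 of the 14 genes positive, while all 5 H2B and all 3 H4 genes stayed negative. Since several of the low H2B and H4 genes passed the filter through their in vivo counts, all genes with a count were also listed by the direction of their means. The in vitro mean was the lower one in 15 of 16 H2A, 16 of 16 H2B, 6 of 12 H3, 8 of 12 H4 and 2 of 5 H1 genes, against 49.2% of all 27882 genes with a count. Genes of a family share sequence and lie side by side, so these counts are not of independent genes.

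**Figure D1:**
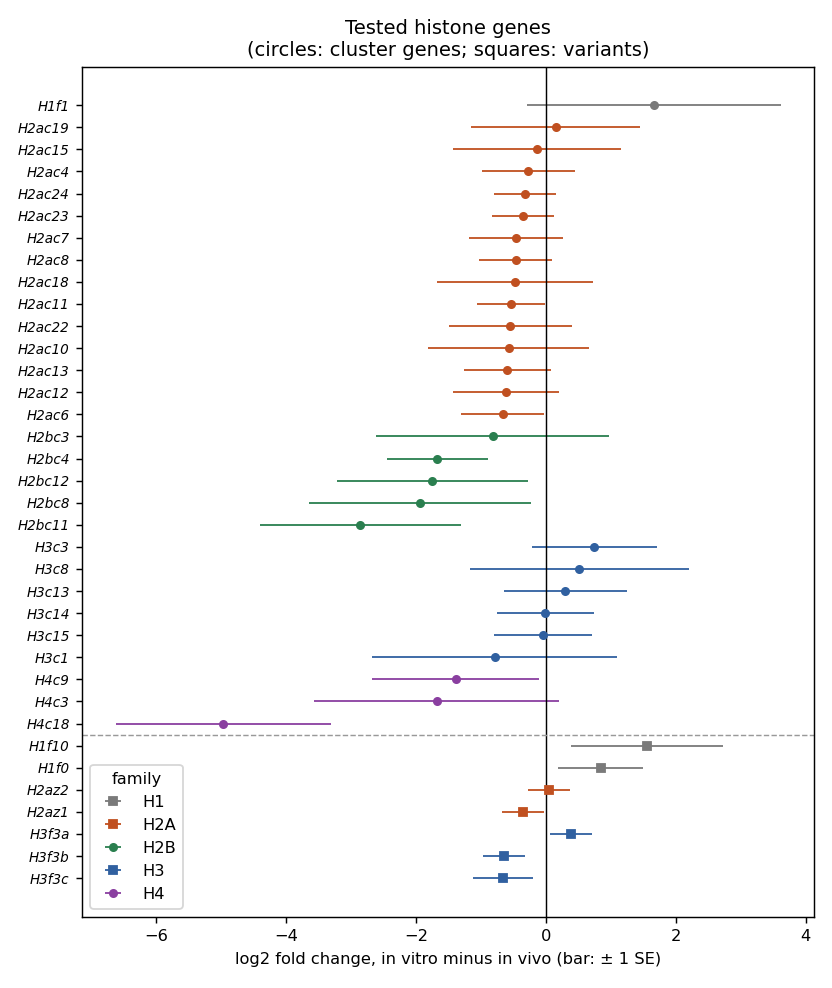
Log2 fold changes of in vitro over in vivo from edgeR, with bars of 1 standard error, for the 29 tested cluster genes (circles) and 7 tested variants (squares), coloured by family. The 5 tested H2B and 3 tested H4 genes lie left of 0, H4c18 farthest at -4.97, and most bars reach close to 0 or past it. Several of these genes passed the filter through their in vivo counts. Of all 12 H4 genes, tested or not, 4 had the higher mean in vitro.

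H2A genes supplied most cluster counts. Summed over the 17 genes they stood at 164, 515 and 236 CPM in vitro, against 330, 301 and 577 CPM in vivo. In vitro replicate 1 was lowest, in vivo replicate 3 was highest, and the groups overlapped. H2A took 80.2% to 86.2% of cluster counts in vitro and 75.9% to 83.9% in vivo. The 17 genes had a log2 ratio of mean sums of -0.40, which came to -0.04 without in vivo replicate 3 and to -1.03 without in vitro replicate 2.

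The leading pair, H2ac24 and H2ac23, encodes a canonical H2A. H2ac24 had 288, 2409 and 625 counts in vitro, against 1431, 1265 and 2424 in vivo, and H2ac23 had 282, 2296 and 616 in vitro, against 1388, 1186 and 2467 in vivo. The pair tracked each other in all 6 libraries: H2ac23 held 48.4% to 50.4% of their joint count. Their coding sequences did not differ at any of 393 bases, and their promoter windows share a run of 200 of 300 bases. This run is the end of the H2ac23 window and the start of the H2ac24 window, which are offset because the annotated starts differ. The other bases of the windows were therefore not compared with each other. The sources used here do not say how reads that match both genes were counted. The pair as 1 quantity was 99.7, 344 and 162 CPM in vitro and 220, 196 and 350 CPM in vivo. In edgeR, H2ac24 had a log2 fold change of -0.32 ± 0.47 (SE, adjusted p = 0.862) and H2ac23 one of -0.35 ± 0.48 (SE, adjusted p = 0.851).

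H2ac11, another canonical H2A gene, had 13.8, 45.7 and 24.9 CPM in vitro, against 35.5, 26.9 and 60.9 CPM in vivo. Its libraries ran in the same order as those of H2ac24 in vitro, at 25.9% to 35.1% of the H2ac24 count over all 6 libraries. The edgeR log2 fold change was -0.54 ± 0.53 (SE, adjusted p = 0.773). In all, 11 H2A genes shared at least 50% of their 50-base coding windows with another of the group. Summed into 1 row before the fit, these 11 had a log2 fold change of -0.40 ± 0.47 (SE, edgeR adjusted p = 0.814).

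**Figure D2:**
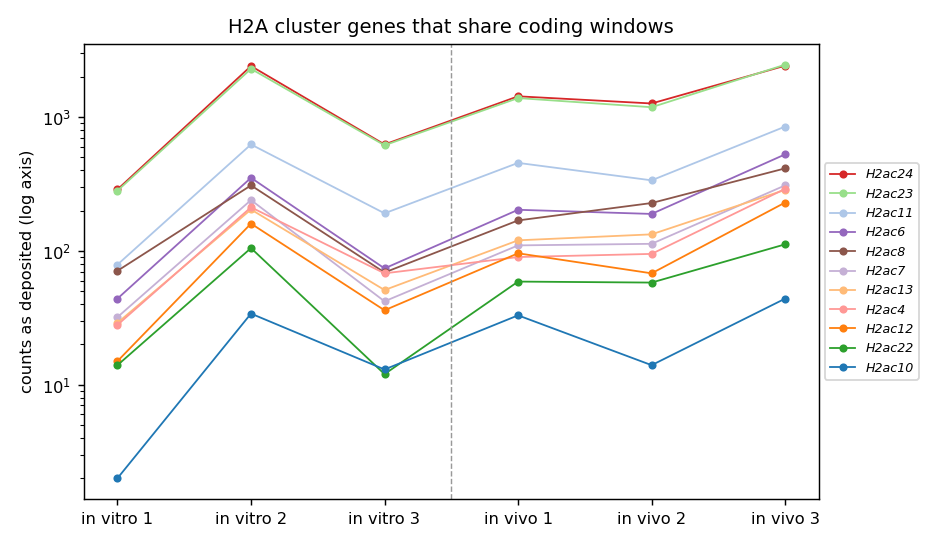
Deposited counts (log axis) of the 11 H2A cluster genes that share coding windows, in 3 in vitro libraries (left of the dashed line) and 3 in vivo libraries. Lines join the counts of a gene and imply no order of libraries. H2ac23 and H2ac24 lie on top of each other, and most genes are lowest in in vitro replicate 1 and highest in in vivo replicate 3. These counts are not scaled for depth, and those libraries had the smallest and the largest total counts (6918288 and 17643429).

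H2B had the largest log2 ratio between groups of the 5 family sums. Its 16 genes summed to 3.32, 19.2 and 10.7 CPM in vitro (19, 263 and 82 counts), against 28.4, 39.1 and 49.1 CPM in vivo (364, 490 and 686 counts). Every in vitro library lay below every in vivo library, as was so for 10.0% of all single genes tested. The family sums were added after the data had been seen. The mean was 11.1 ± 7.97 CPM in vitro and 38.9 ± 10.3 CPM in vivo (SD, n = 3 each), a log2 ratio of -1.81. With a library left out it ran from -2.49 (without in vitro replicate 2) to -1.37 (without in vitro replicate 1), and it was -1.83 with ribosomal RNA genes left out before scaling. H2B held 1.63% to 3.74% of cluster counts in vitro and 6.99% to 9.87% in vivo.

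H2bc4 carried most of the H2B signal. It had 1.05, 9.29 and 10.7 CPM in vitro, against 18.6, 22.0 and 26.9 CPM in vivo, with no overlap between the groups. The edgeR log2 fold change was -1.67 ± 0.77 (SE, adjusted p = 0.504). H2bc4 was also one of the cluster genes without a stem-loop in the single transcript searched, which runs 742 bases past the stop codon. Any shorter transcript of H2bc4 was not searched.

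H2bc11 had 3, 11 and 0 counts in vitro, against 11, 39 and 85 in vivo, and a log2 fold change of -2.86 ± 1.55 (SE, edgeR adjusted p = 0.570). H2bc12 had 9, 17 and 0 counts in vitro, against 35, 24 and 68 in vivo, and one of -1.75 ± 1.47 (SE, edgeR adjusted p = 0.734). On the CPM scale neither gene's groups overlapped, but each rests on few counts. H2bc8, tested too, had 0, 17 and 0 counts in vitro, against 19, 28 and 21 in vivo. Over all 16 H2B genes, H2bc4, H2bc6, H2bc7, H2bc8, H2bc11 and H2bc12 showed no overlap, all lower in vitro, against 6.65% of all genes with a count, and H2bc6 and H2bc7 were too low to be tested. The other untested members without overlap were H3c11, lower in vitro, and H4c14, higher in vitro (5.62% of all genes with a count). Summed over the 12 H2B genes that share coding windows, the edgeR log2 fold change was -1.80 ± 0.62 (SE, adjusted p = 0.408).

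Markers of oviduct and uterine epithelium and of the oocyte went in both directions, and single genes were lower in vitro, as the H2B and H4 sums were. Of 4 markers of oviduct and uterine epithelium, which together had 0.130 to 5.34 CPM in vitro and 6.62 to 15.4 CPM in vivo, Muc1 had 0.175, 2.63 and 0.130 CPM in vitro, against 10.3, 4.63 and 15.4 CPM in vivo. Ovgp1 and Pax8 had higher means in vitro, and Ltf was at 0 in all libraries. Of 5 oocyte markers, which together had 0.175 to 4.54 CPM in vitro and 2.11 to 4.58 CPM in vivo, Zp3 had 0, 1.39 and 0 CPM in vitro, against 2.03, 3.67 and 4.51 CPM in vivo. Zp2, Gdf9 and Oosp1 went the other way, with higher means in vitro, and Bmp15 was at 0 in all libraries. Zp2 had 0.175, 0.805 and 0.651 CPM in vitro, against 0, 0 and 0.0716 CPM in vivo. The part of Muc1 and Zp3 in the H2B and H4 results was not tested.

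**Figure D3:**
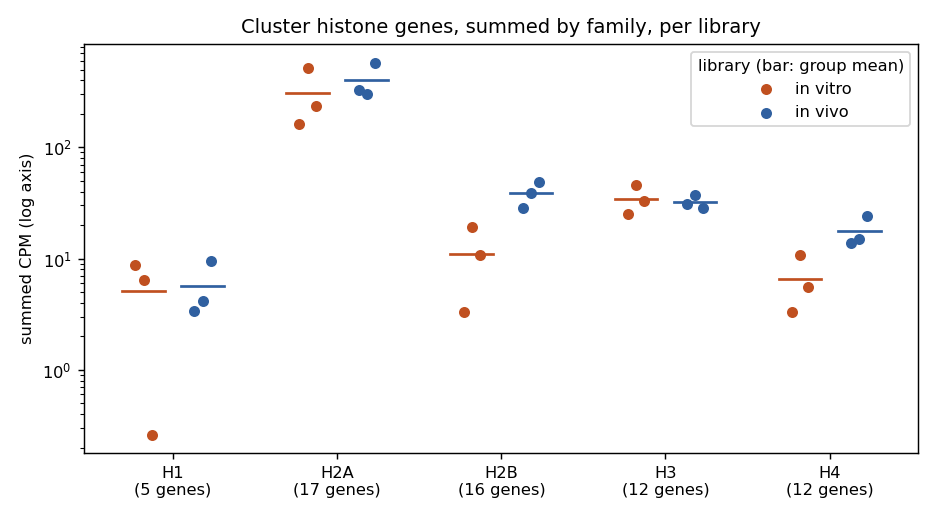
Summed CPM (log axis) of the cluster genes of each family in 3 in vitro libraries (left, orange) and 3 in vivo libraries (right, blue), with the group mean as a bar. H2B separates the groups without overlap, at 3.32 to 19.2 CPM in vitro and 28.4 to 49.1 CPM in vivo, as does H4, while H1, H2A and H3 overlap. Of all single genes tested, 10.0% were lower in vitro without overlap, and the family sums were added after the data had been seen.

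H4 stood lower in vitro too, at much smaller counts. Its 12 genes summed to 3.32, 10.8 and 5.60 CPM in vitro, against 13.9, 14.8 and 23.9 CPM in vivo, without overlap and with a log2 ratio of -1.41. This sum too was added after the data had been seen, and 10.0% of single genes tested were lower in vitro without overlap. Without in vivo replicate 3 the ratio was -1.12, and without in vitro replicate 2 it was -1.99. H4c9, the highest, had 0, 71 and 26 counts in vitro, against 90, 52 and 162 in vivo, and a log2 fold change of -1.39 ± 1.28 (SE, edgeR adjusted p = 0.759).

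H4c18 was the only member listed by any test. It had 0, 2 and 1 counts in vitro, against 10, 23 and 110 in vivo, so every in vitro library lay at or below the 3-count floor and in vivo replicate 3 held most of the signal. H4c18 passed the filter on low counts only through its in vivo libraries, so edgeR could list it only as lower in vitro. The in vivo level over the summed libraries was 32.8 times the in vitro level (95% exact counting interval 11 to 161), and 11.8 times (3.69 to 59.9) without in vivo replicate 3. Without molecular identifiers such intervals cover counting error only. They leave out the spread between libraries, which stood at 0.781, 1.84 and 7.87 CPM in vivo. The edgeR log2 fold change was -4.97 ± 1.65 (SE, adjusted p = 0.399). DESeq2 gave -5.11 ± 1.57 (SE) with an adjusted p of 0.0442, and the call was lost in each of the 6 fits that left out a library (adjusted p from 0.0602 to 0.158 in 5 of them, with none given without in vivo replicate 3).

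The coding sequence of H4c18 equals that of H4c17 at all 312 bases, and their promoter windows share a run of 285 of 300 bases. H4c17 had 2, 2 and 1 counts in vitro, against 3, 13 and 52 in vivo, and was too low to be tested. Taken as 1 quantity, the pair had 8 counts in vitro and 211 in vivo, with a log2 fold change of -4.06 ± 1.38 (SE, edgeR adjusted p = 0.405). Its in vivo level was 18.2 times the in vitro level (95% exact counting interval 9.05 to 42.6), and 6.54 times (3.07 to 16) without in vivo replicate 3. H4c17 lies close to H2ac23 and H4c18 close to H2ac24 on chromosome 13, in mirrored order (H2ac23 at 21810367-21810918, H4c17 at 21811746-21812150, H4c18 at 21831792-21832197 and H2ac24 at 21833024-21833475).

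H3 cluster genes showed no such lean. Summed over 12 genes they stood at 25.0, 45.6 and 33.2 CPM in vitro, against 30.8, 37.4 and 28.2 CPM in vivo, a log2 ratio of 0.11 that turned to -0.19 under scaling by library totals and to -0.16 without in vitro replicate 2. H3c3 had 17.7, 6.07 and 1.30 CPM in vitro, against 4.53, 5.11 and 5.23 CPM in vivo. The in vitro libraries of H3c3 enclosed the in vivo ones, and the edgeR log2 fold change was 0.75 ± 0.96 (SE, adjusted p = 0.838).

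H3c14 had 2.45, 11.7 and 10.0 CPM in vitro, against 8.2, 7.98 and 8.23 CPM in vivo, and H3c15 had 2.45, 13 and 8.33 CPM in vitro, against 7.73, 8.30 and 8.59 CPM in vivo. Both had in vivo libraries close together and a low in vitro replicate 1. Their edgeR log2 fold changes were -0.01 ± 0.75 (SE, adjusted p = 0.999) and -0.05 ± 0.76 (SE, adjusted p = 0.992).

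The 5 cluster H1 genes were low and uneven. Together they had 50, 88 and 2 counts in vitro, against 43, 52 and 132 in vivo, and all 132 of those in in vivo replicate 3 were from H1f3, which had 4, 4 and 0 counts in vitro and 1 and 1 in the other in vivo libraries. H1f1, the only one tested, had 30, 23 and 0 counts in vitro, against 4, 23 and 0 in vivo, and a log2 fold change of 1.67 ± 1.95 (SE, edgeR adjusted p = 0.816). H1f5 had 5, 39 and 0 counts in vitro, against 11, 1 and 0 in vivo. No direction can be read from these values. A cluster gene was detected, with at least 1 count, for 36, 59 and 30 of the 62 genes in vitro and for 56, 59 and 45 in vivo. Depth and the share of ribosomal RNA differed between libraries, and detection was not set beside that of all genes, so no group difference is read from these numbers.

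Many H2A and H2B genes lie head to head and share the stretch between their starts. There were 12 such pairs among the members, with 163 to 280 bases between the genes. Per kilobase the H2A gene stood above its H2B partner in all 6 libraries in 10 of the 12 pairs, the exceptions being the germline-restricted pair H2ac1 and H2bc1 and the low pair H2ac20 and H2bc21. The 10 include the pseudogene H2ac14 with H2bc14. Whether the counts of H2ac14 are reads of other H2A genes was not tested.

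H2ac11 and H2bc11, whose shared promoter is printed above, stood at 59.6 against 0.961 CPM per kb in vitro and at 87.1 against 7.27 CPM per kb in vivo. H2ac23 and H2bc23 were farther apart, at 180 against 0.123 CPM per kb in vitro and 229 against 0.442 CPM per kb in vivo. Their annotated lengths were 552 and 2175 bases, so division by length widened this gap. Over all libraries they had 8235 and 49 counts. The pair closest to each other was H2ac6 and H2bc4, at 29.5 against 9.05 CPM per kb in vitro and 47.0 against 29.1 CPM per kb in vivo. These are levels in each group, and how far reads shared among copies shaped them was not tested.

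**Figure D4:**
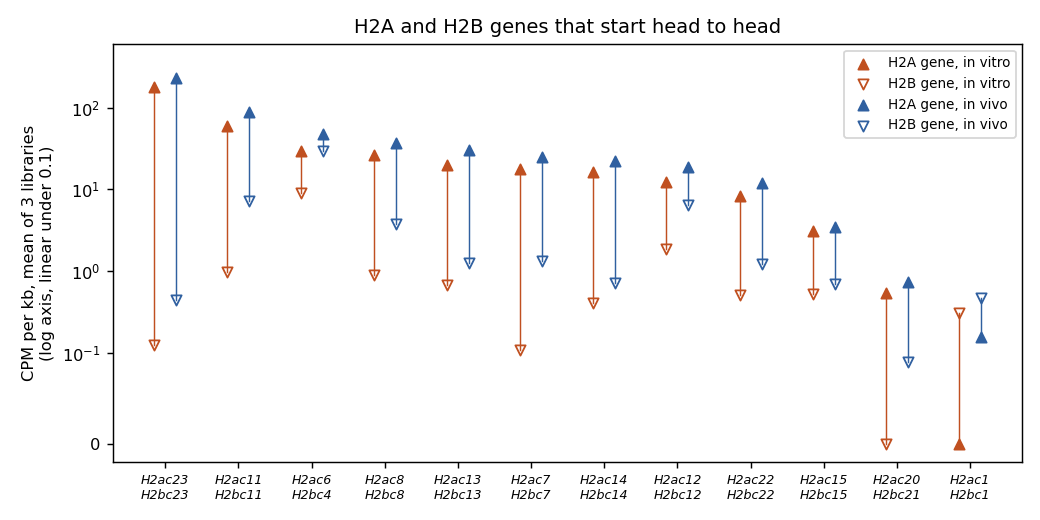
Mean level per kilobase (log axis, linear under 0.1) of the H2A gene (filled, pointing up) and the H2B gene (open, pointing down) of 12 head-to-head pairs, in vitro (left, orange) and in vivo (right, blue), 3 libraries each. The H2A gene is above its partner in 11 pairs, among them that of the pseudogene H2ac14, and H2ac1 lies below H2bc1.

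Among variants, the H3.3 gene H3f3b had the smallest p. It had 383, 656 and 564 CPM in vitro, against 973, 917 and 620 CPM in vivo, and in vivo replicate 3 overlapped the in vitro range. The edgeR log2 fold change was -0.65 ± 0.32 (SE, adjusted p = 0.539). H3f3a, which encodes the same H3.3 protein, had 173, 126 and 247 CPM in vitro, against 147, 139 and 132 CPM in vivo, and a log2 fold change of 0.38 ± 0.33 (SE, edgeR adjusted p = 0.738). H3f3b supplied 68.8%, 83.9% and 69.6% of the counts of both genes in vitro, against 86.9%, 86.8% and 82.5% in vivo.

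H3f3c had 24, 33.1 and 32.2 CPM in vitro, against 66.5, 53.6 and 21.8 CPM in vivo, with in vivo replicate 3 below the whole in vitro range. Its log2 fold change was -0.67 ± 0.46 (SE, edgeR adjusted p = 0.663). RefSeq lists H3f3c as protein-coding and GENCODE as a processed pseudogene.

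H2A.Z replaces H2A near gene starts and elsewhere and is needed for early mouse development. H2az1 had 430, 355 and 623 CPM in vitro, against 467, 588 and 746 CPM in vivo, with overlap and an edgeR log2 fold change of -0.36 ± 0.33 (SE, adjusted p = 0.757). H2az2, its paralog, had 71.2, 59.9 and 55.1 CPM in vitro, against 62.3, 67.6 and 50.4 CPM in vivo. Its log2 fold change of 0.05 ± 0.32 (SE, edgeR adjusted p = 0.976) turned to -0.31 under scaling by library totals, which moved the median of all genes to -0.31 as well.

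Both tested linker variants had higher means in vitro. H1f10 had 7.87, 9.80 and 9.63 CPM in vitro, against 4.53, 4.71 and 0.0716 CPM in vivo, without overlap, the last value being a single count. Its log2 fold change was 1.55 ± 1.17 (SE, edgeR adjusted p = 0.697), and 0.98 without in vivo replicate 3. H1f0, the H1 variant that accumulates in cells that stop dividing, had 6.82, 34.2 and 17.3 CPM in vitro, against 9.84, 14.4 and 8.30 CPM in vivo, with overlap and a log2 fold change of 0.84 ± 0.66 (SE, edgeR adjusted p = 0.708) that was 0.14 without in vitro replicate 2. The oocyte linker gene H1f8 had 1, 0 and 0 counts in vitro and 0, 0 and 1 in vivo, and H1f7, a spermatid gene, had 0 in every library.

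Summed over the 9 variants, the level was 1095, 1274 and 1549 CPM in vitro, against 1730, 1784 and 1579 CPM in vivo, without overlap but with in vitro replicate 3 close to in vivo replicate 3. Of all single genes tested, 10.0% were lower in vitro without overlap. The log2 ratio was -0.38, and -0.71 under scaling by library totals. The median log2 fold change of the 7 tested variants was 0.05, with 4 positive and 3 negative.

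**Figure D5:**
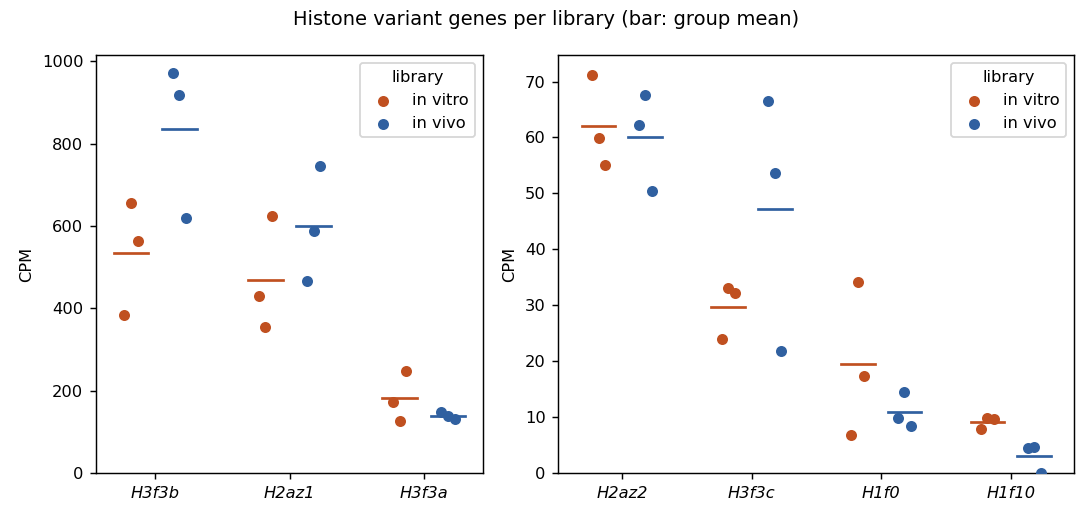
CPM of 7 variant genes in 3 in vitro libraries (left, orange) and 3 in vivo libraries (right, blue), with the group mean as a bar and a separate linear axis for each panel. H1f10 separates the groups without overlap, and H3f3b overlaps only through in vivo replicate 3 at 620 CPM.

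Germline genes inside the clusters were near 0. H1f6 had 0 counts in every library. H2ac1 had 0, 0 and 0 counts in vitro, against 1, 0 and 2 in vivo, and H2bc1 had 1, 3 and 0 in vitro, against 1, 3 and 4 in vivo. H3f4 had 0, 0 and 0 in vitro, against 9, 0 and 0 in vivo. These counts allow no comparison. The pseudogene H2ac14 had 15, 155 and 28 counts in vitro, against 69, 73 and 175 in vivo.

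Genes that make, process and carry histones were taken as a further list of 54 genes. Of the 53 tested, edgeR and DESeq2 each called 0, and 4 had an unadjusted edgeR p below 0.05 (10.2% of all genes tested did), 3 of them higher in vitro and 1 lower. In 29 the log2 fold change was positive and in 24 negative, with a median of 0.03. Of the 25 tested chaperone and deposition genes 15 were positive, and of the 9 genes for 3′ end processing 7 were negative, with medians of 0.28 and -0.41.

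Npat, whose product switches on histone gene transcription at the start of S phase, had 49.0, 28.2 and 114 CPM in vitro, against 23.8, 18.3 and 45.0 CPM in vivo, with overlap. Its edgeR log2 fold change was 1.13 ± 0.57 (SE, adjusted p = 0.539). Slbp had 92.7, 69.1 and 126 CPM in vitro, against 90.3, 75.0 and 63.8 CPM in vivo, and one of 0.33 ± 0.34 (SE, adjusted p = 0.792) that turned to -0.07 under scaling by library totals. Cpsf3, the nuclease that cuts pre-mRNA ends, had 31.1, 20.3 and 13 CPM in vitro, against 36.2, 30.1 and 39.6 CPM in vivo, and a log2 fold change of -0.72 ± 0.44 (SE, edgeR adjusted p = 0.619).

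Of the chaperones, Npm1, the nucleolar nucleophosmin, had 1183, 678 and 1061 CPM in vitro, against 349, 496 and 435 CPM in vivo, without overlap. Its log2 fold change was 1.19 ± 0.32 (SE, edgeR adjusted p = 0.327). Atrx, which places H3.3 at heterochromatin and telomeres, had 155, 105 and 100.4 CPM in vitro, against 33.0, 38.2 and 84.8 CPM in vivo, and a log2 fold change of 1.21 ± 0.43 (SE, edgeR adjusted p = 0.415). Limma-voom gave Atrx an adjusted p of 0.0423. Hat1, which acetylates new H4, had 248, 206 and 198 CPM in vitro, against 146, 151 and 71.3 CPM in vivo, and a log2 fold change of 0.82 ± 0.36 (SE, edgeR adjusted p = 0.481).

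Nasp, a chaperone of H3 and H4, had 145, 131 and 116 CPM in vitro, against 110, 81.2 and 103 CPM in vivo, and Nap1l4, a chaperone of H2A and H2B, had 89.5, 60.4 and 58.2 CPM in vitro, against 41.5, 26.4 and 48.0 CPM in vivo. Neither gene's groups overlapped, and the edgeR adjusted p was 0.672 for Nasp and 0.493 for Nap1l4. Asf1a, which hands H3 and H4 to assembly factors, had 2.45, 4.83 and 2.60 CPM in vitro, against 12.6, 27.1 and 3.08 CPM in vivo, and a log2 fold change of -2.10 ± 0.88 (SE, edgeR adjusted p = 0.469). Its in vivo replicate 3 lay within the in vitro range.

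Of the 16 S-phase genes, 10 stood higher and 6 lower in vitro by their log2 fold changes, the median being 0.03. Tyms, which makes thymidylate for DNA synthesis, had 22.4, 30.4 and 31.0 CPM in vitro, against 38.3, 40.2 and 59.0 CPM in vivo, without overlap, and a log2 fold change of -0.71 ± 0.38 (SE, edgeR adjusted p = 0.554). Ccne2, a cyclin of S-phase entry, had 1.40, 1.61 and 2.08 CPM in vitro, against 5.08, 3.75 and 5.30 CPM in vivo, also without overlap, and a log2 fold change of -1.47 ± 0.99 (SE, edgeR adjusted p = 0.651). In all, 10 of the 53 genes showed no overlap, 5 in each direction, against 19.3% of all genes tested.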

How the data were processed

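RNA-seq of 6 libraries of total RNA was used; extraction was with a microscale kit and the library kit, based on a transposase, leaves strand unmarked, according to the labels' protocols. One table of raw counts per gene was deposited by the authors and used unchanged. FastQC 0.11.2, DESeq2 and GRCm39 are named in the submitters' processing notes; the sources used here do not give the aligner, the counter or its handling of shared reads. The gene coordinates of the table equal those of RefSeq on GRCm38.p6 for all 76 members, so that build is used. Total counts of 6918288 to 17643429 per library set the precision.

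Libraries were grouped by their titles. In R 4.3.3, edgeR 4.0.16 filtered low counts (14301 genes kept), scaled by TMM and ran a two-sided robust quasi-likelihood F-test, with p-values adjusted by Benjamini-Hochberg across every tested gene (threshold 0.05). The common biological coefficient of variation was 0.727. CPM values use TMM-scaled totals. DESeq2 1.42.0 and limma 3.58.1 were run beside it. Each test was first checked on simulated counts. Stem-loops and shared 50-base coding windows were searched in GENCODE M21 transcripts, and promoters were taken from RefSeq (GRCm38.p6, 70 of 76 members matched). The named genes are the 3 highest cluster genes of each family, variants of at least 10 CPM on average, members with an unadjusted p below 0.05, germline members, the largest changes of each class, Slbp, Npat and Nasp, and up to 4 genes of smallest p in each direction of the supply list. Other members are named where a count of theirs is listed.

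The members and gene lists were chosen with earlier results of these data known. Alternatives were other scalings, filters, tools, a replicate block, each library left out, and, added after seeing the data, copies summed, family sums and further DESeq2 fits. The main fit took the samples as unpaired, and whether the replicate numbers pair them could not be settled from the data.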

Additional observations from a re-analysis of the deposited data

How the results depend on the processing

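The number of genes called was 0 under edgeR, 391 with no filter on low counts, 473 under DESeq2 and 102 under limma-voom. The number of members called was 0 under edgeR and 1 under DESeq2 (H4c18), the DESeq2 count being 0 to 0 in DESeq2 fits that left out a library. The cluster median of -0.54 ranged from -1.38 to -0.15 with a library left out and was -0.13 under limma-voom. Scaling by library totals moved the variants' median to -0.31 and their summed ratio to -0.71, and reversed the H3 sum (-0.19), H2az2 (-0.31) and Slbp (-0.066); limma-voom reversed H2az2 (-0.056). With a library left out the H3 sum ranged from -0.16 to 0.30, H2ac24 from -0.98 to 0.0084, H2az2 from -0.060 to 0.13, H3c14 from -0.40 to 0.42, H3c15 from -0.62 to 0.38 and H3c3 from -0.41 to 1.25. The causes were not tested. Of 465 alternative fits of 30 named genes, 453 kept the direction and side of the threshold, and 10 reversed direction. Since the main edgeR fit called 0 genes, no call could be lost, and keeping the side of the threshold was nearly fixed in advance.

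Deviations of same-numbered libraries from their group means correlated at -0.099, 0.096 and -0.044 across genes. With 3 libraries in each group, such correlations cannot show whether the samples were paired. With the replicate block, 0 members and 0 genes were called, and the medians were -0.68 for cluster genes and 0.048 for variants. Members with identical protein were not summed, since that alternative was not run; copies that share coding windows were summed in its place. Counts of 0 to 3 made up 43.3% of the cluster H1, 47.9% of the H2B and 51.4% of the H4 values and limit what can be said of single genes.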

Other observations

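Histone genes outside the list were read too. H2ax, whose product marks DNA breaks, had 353, 754 and 629 counts in vitro, against 2652, 2337 and 978 in vivo (edgeR log2 fold change -1.22 ± 0.43, SE, adjusted p = 0.415), and its CPM overlapped between groups. Macroh2a2, which encodes a macroH2A linked to silent chromatin, had 39, 16 and 15 counts in vitro, against 8, 0 and 0 in vivo, without overlap (edgeR log2 fold change 3.92 ± 1.88, SE, adjusted p = 0.523). Its paralog Macroh2a1 had 161, 145 and 187 CPM in vitro, against 164, 125 and 174 CPM in vivo. H2aj had 28.0, 114 and 53.6 CPM in vitro, against 49.8, 48.8 and 23.4 CPM in vivo. Cenpa, the centromeric H3, had 62.1, 75.5 and 112 CPM in vitro, against 110, 124 and 73.9 CPM in vivo. For Macroh2a1, H2aj and Cenpa the groups overlapped. These genes were chosen after values of these data had been seen.

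Of the 7 pseudogene rows left out by their symbols, 2 are named after H3f3a. H3f3a-ps2 had 287, 502 and 422 counts in vitro, against 619, 612 and 463 in vivo, and H3f3a-ps1 had 97, 242 and 217 in vitro, against 225, 194 and 471 in vivo. Whether their counts are reads of the H3.3 genes was not tested. H2ac5-ps had 29, 135 and 45 counts in vitro, against 78, 53 and 203 in vivo.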
